A study of Mus musculus with 20 samples.

Results

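Genes of hepatocyte identity and the transcription factor Tbx3 were followed through a mouse liver RNA-seq study: albumin (Alb), forkhead box A2 (Foxa2), fibroblast growth factor receptor 4 (Fgfr4), asialoglycoprotein receptor 1 (Asgr1) and T-box 3 (Tbx3). The deposited counts use human exon coordinates, per the file headers, so each counted interval was read as a stretch of the mouse genome. The genes were chosen by name, and each was measured as the sum of the counted intervals that lay over the exons of that mouse gene and of no other, by at least 50 bp. All 5 of the 5 genes were found in this way among the 4217 mouse genes with counts, and all 5 were among the 2200 genes abundant enough to be tested. Liver RNA came from 20 individual mice in 4 groups of 5, with every library made from 1 animal: mice given anti-CD40 together with antibiotics (ABX), mice given anti-CD40 without ABX, control mice with ABX and control mice without ABX. Anti-CD40 binds CD40, a member of the TNF receptor family carried by B cells, dendritic cells and macrophages. The labels give no strain, sex, age, antibody clone, dose, interval or choice of antibiotics, nor what the control mice received.

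Hepatocytes are recognised by the proteins they secrete, the receptors they carry and the transcription factors that keep those genes on. Albumin is the main plasma protein and one of the most abundant liver transcripts, and FOXA2 is a forkhead factor that opens chromatin at liver genes. ASGR1 is the major subunit of the receptor that takes up desialylated glycoproteins, and FGFR4 is the receptor through which the gut hormone FGF15 lowers bile acid synthesis in the mouse. TBX3 is a T-box repressor needed for the growth of hepatoblasts in the mouse embryo, and in adult liver it is known as a target of WNT and β-catenin signalling.

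Tbx3 stood above all other mice in the control mice without ABX, and Foxa2 had its highest mean there too. Alb was lower in anti-CD40 than in control mice with and without ABX, Fgfr4 was higher in both settings, and Asgr1 differed by little.

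Each gene was measured over a part of its exons, and the plot of gene maps shows which part. The gene positions are those of the mm10 build and the GENCODE M21 annotation, with exon numbers from 1 annotated transcript of each gene.

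**Figure D1:**
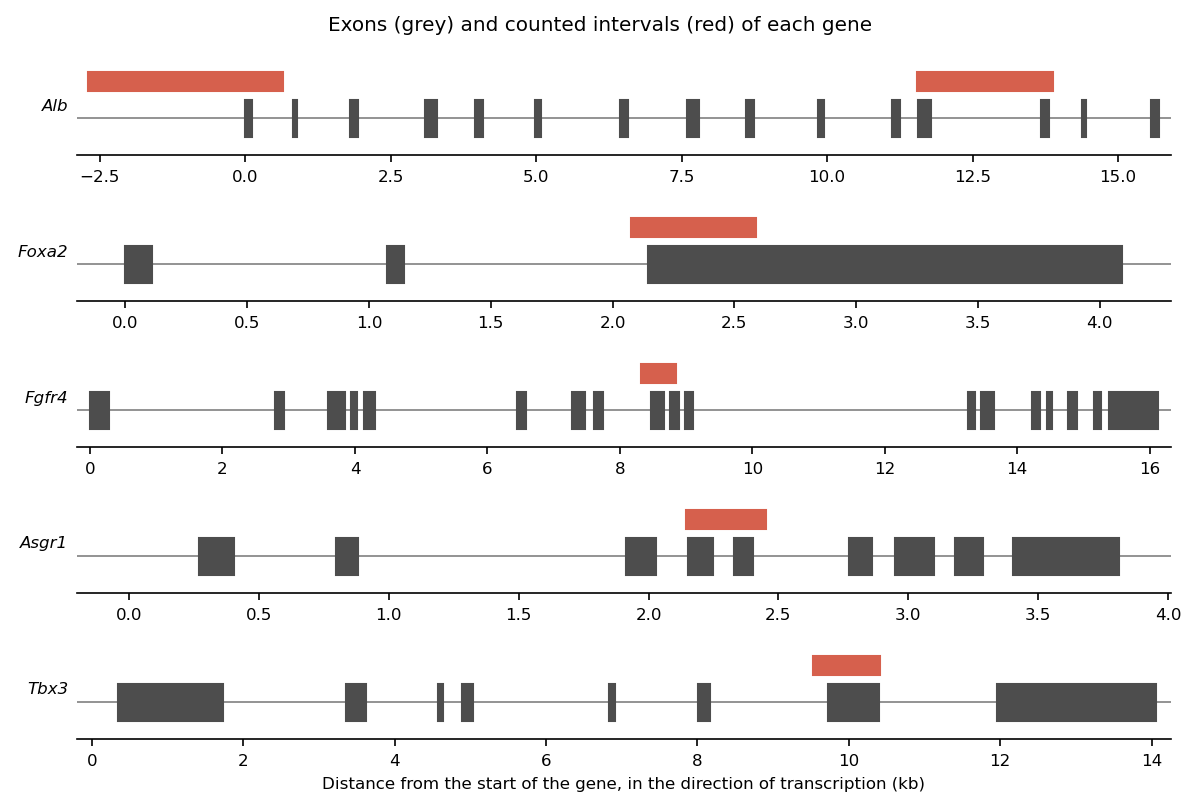
Exons of each gene (grey boxes) and the intervals over them in which fragments were counted (red boxes; intervals of the Asgr1 and Fgfr4 rows that lie outside the gene are not drawn), against the distance from the start of the gene in the direction of transcription, in kb. Alb was counted over an interval around the start of the gene and another over exons 12 and 13, and each other gene over a single stretch that covers between 8.22% and 18.8% of its exon length.

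Libraries held between 5053014 and 7618736 counted fragments, with a median of 6199078, and all 20 were used. Mitochondrial transcripts took 20.9% to 25.8% of counts in anti-CD40 mice with ABX, 23.7% to 25.7% in anti-CD40 mice without ABX, 29.5% to 35.1% in control mice with ABX and 22.4% to 31.1% in control mice without ABX. Hepatocyte markers were checked against the label of liver: 6 of 16 were tested, and their summed level lay between 72138 and 313943 CPM (counts per 1000000 library counts) in every mouse. The labels name a plate well for each library, and the wells lie largely with the groups. Plate column 3 held the 5 control mice with ABX and control mice 6, 7 and 8 without ABX; column 4 held control mice 9 and 10, the 5 anti-CD40 mice with ABX and anti-CD40 mouse 16 without ABX; column 5 held anti-CD40 mice 17 to 20. Levels in CPM were scaled with TMM factors, which lay between 1.01 and 1.14 for anti-CD40 mice with ABX, 1.04 and 1.32 for anti-CD40 mice without ABX, 0.777 and 0.924 for control mice with ABX and 0.915 and 0.974 for control mice without ABX.

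Tbx3 (ENSMUSG00000018604.18) lies on the plus strand at chr5:119670669-119684724. It was counted over 718 bp of its 6624 exon bp, or 10.8%. Of these, 671 bp are coding sequence of exon 7 of 8 and 47 bp belong to an exon of another Tbx3 transcript. The first 250 bases of the counted coding sequence, at chr5:119680395-119680644 on the plus strand, are shown because exon 7 holds most of the counted exon bases, although fragments from those 47 bp and from the rest of the 884 bp interval, 81.2% of which is exon, are in the same count; they come from the GENCODE transcript and no letter is capitalised.
Tbx3 exon 7: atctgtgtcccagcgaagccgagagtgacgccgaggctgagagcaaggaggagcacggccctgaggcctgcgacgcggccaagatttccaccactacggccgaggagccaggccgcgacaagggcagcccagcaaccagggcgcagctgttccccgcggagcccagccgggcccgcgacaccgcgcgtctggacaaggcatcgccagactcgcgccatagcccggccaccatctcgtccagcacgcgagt

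Tbx3 levels were 15.7, 15.8, 18.5, 24.5 and 20.4 CPM in anti-CD40 mice 11 to 15, which had ABX. In anti-CD40 mice 16 to 20, which had no ABX, they were 19.6, 18.1, 18.6, 22.4 and 33.4 CPM. All 10 anti-CD40 mice were thus below every control mouse without ABX, given next. Control mice 1 to 5, with ABX, had 13.3, 17.7, 45.2, 27.2 and 38.4 CPM, and control mice 6 to 10, without ABX, had 68.5, 104, 116, 65.0 and 83.1 CPM. The control mice without ABX stood apart from the other 3 groups with no overlap, while those 3 groups overlapped one another. Group means were 19 ± 3.66 CPM in anti-CD40 mice with ABX, 22.4 ± 6.36 CPM in anti-CD40 mice without ABX, 28.4 ± 13.5 CPM in control mice with ABX and 87.4 ± 22.3 CPM in control mice without ABX (SD, n = 5 each). The raw counts behind these values ran between 83 and 696 per library, with a median of 149.5.

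Foxa2 (ENSMUSG00000037025.11) lies on the minus strand at chr2:148042877-148046969. It was counted over 445 bp of its 2370 exon bp, or 18.8%, all of it coding sequence in exon 3 of 3. The first 250 bases of that sequence in the direction of transcription, at chr2:148044575-148044824 on the minus strand, are shown as the stretch that was counted, with no letter capitalised.
Foxa2 exon 3: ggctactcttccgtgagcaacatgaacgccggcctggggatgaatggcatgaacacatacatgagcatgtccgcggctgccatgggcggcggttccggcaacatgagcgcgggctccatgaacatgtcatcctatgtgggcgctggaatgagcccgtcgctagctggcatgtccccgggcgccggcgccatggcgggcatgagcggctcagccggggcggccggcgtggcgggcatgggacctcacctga

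Foxa2 levels were 54.4, 59.3, 49.3, 73.5 and 78.1 CPM in anti-CD40 mice 11 to 15 with ABX. Without ABX, anti-CD40 mice 16 to 20 had 52.0, 53.9, 35.5, 67.1 and 66.5 CPM. The ranges of the anti-CD40 groups overlapped, at 49.3 to 78.1 CPM with ABX and 35.5 to 67.1 CPM without. Control mice 1 to 5 with ABX had 135, 55.8, 59.0, 49.8 and 36.3 CPM, so mouse 1 stood far above the other 4, which lay in the range of the anti-CD40 mice. Control mice 6 to 10 without ABX had 115, 71.9, 124, 119.7 and 150.5 CPM, and mouse 7 was the lowest of them. Means were 62.9 ± 12.4 CPM in anti-CD40 mice with ABX, 55.0 ± 13 CPM in anti-CD40 mice without ABX, 67.2 ± 38.8 CPM in control mice with ABX and 116 ± 28.3 CPM in control mice without ABX (SD, n = 5 each). Control mouse 1 had the highest Foxa2 level of the control mice with ABX and the lowest Tbx3 level of that group.

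**Figure D2:**
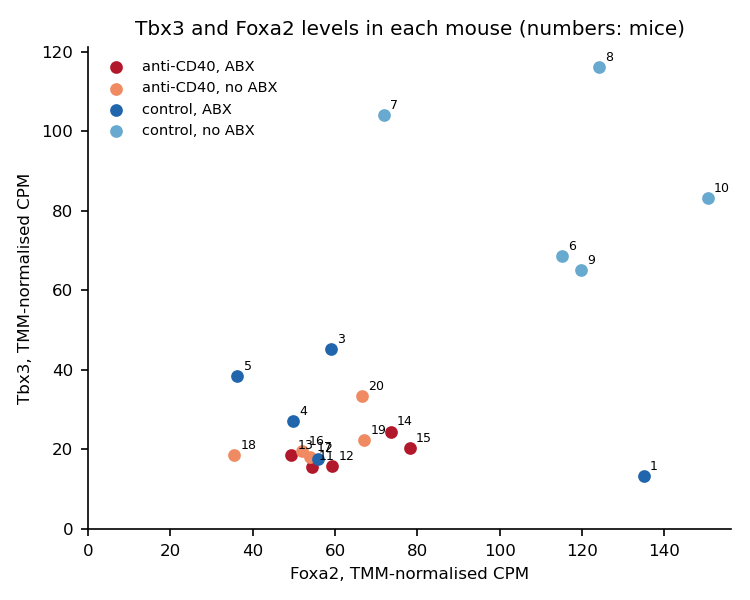
Tbx3 against Foxa2 in each mouse, both in TMM-normalised CPM; each point is 1 mouse, numbered, and colours are the 4 groups. The 5 control mice without ABX lie at 65.0 to 116 CPM of Tbx3, above all other mice, and control mouse 1 with ABX lies apart at 135 CPM of Foxa2 and 13.3 CPM of Tbx3.

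Alb (ENSMUSG00000029368.10) lies on the plus strand at chr5:90460897-90476602. It was counted over 474 bp of its 2342 exon bp, or 20.2%: 117 bp of exon 1, of which 79 bp are coding, 224 bp of exon 12 and 133 bp of exon 13, out of 15 exons. The counted intervals hold 5676 bp, of which 8.35% is exon, and the one around exon 1 also covers the promoter. The 250 bases before the RefSeq start site, at chr5:90460620-90460869 on the plus strand of GRCm38.p6, are shown with the core of an HNF1 site (GTTAAT or, on the other strand, ATTAAC) and CCAAT boxes (CCAAT or ATTGG) in capitals, because HNF1 and CCAAT-binding factors are textbook regulators of this promoter.
Alb promoter: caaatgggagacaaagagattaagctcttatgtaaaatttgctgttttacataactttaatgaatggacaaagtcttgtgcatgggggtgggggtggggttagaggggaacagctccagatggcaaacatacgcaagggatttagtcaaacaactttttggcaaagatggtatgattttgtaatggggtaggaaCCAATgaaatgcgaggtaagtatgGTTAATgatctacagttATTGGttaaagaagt

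Alb levels were 85118, 96883, 69454, 71484 and 82741 CPM in anti-CD40 mice 11 to 15 with ABX, against 165944, 195354, 197760.4, 260504 and 210079 CPM in control mice 1 to 5 with ABX. In anti-CD40 mice 16 to 20 without ABX they were 70566, 44829, 62122, 61868 and 65188 CPM, against 161355, 156859, 149421, 174524 and 155969.6 CPM in control mice 6 to 10 without ABX. Every anti-CD40 mouse was below every control mouse. Means were 81136 ± 11136 CPM in anti-CD40 mice with ABX, 60914 ± 9650.4 CPM in anti-CD40 mice without ABX, 205928 ± 34543 CPM in control mice with ABX and 159626 ± 9355 CPM in control mice without ABX (SD, n = 5 each). The spread among control mice without ABX was the smallest of the 4 groups relative to the mean, with a coefficient of variation of 5.86%.

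Asgr1 (ENSMUSG00000020884.15) lies on the plus strand at chr11:70054085-70057894. It was counted over 168 bp of its 1591 exon bp, or 10.6%: 96 bp of exon 4 and 72 bp of exon 5, out of 9 exons, all coding. The same counted row holds 1 further interval of 1689 bp beyond the end of the gene, over no annotated exon, whose fragments cannot be told apart from those of Asgr1. Fgfr4 (ENSMUSG00000005320.9) lies on the plus strand at chr13:55152640-55168759 and was counted over 291 bp of its 3542 exon bp, or 8.22%: 194 bp of exon 9 and 97 bp of exon 10, out of 18 exons, all coding; its row holds 2 further short intervals outside the gene, of 125 bp in all. Their 250 bases before a RefSeq start site are shown as a comparison with the Alb promoter, at chr11:70053874-70054123 and chr13:55152568-55152817 on the plus strand of GRCm38.p6, with the same capitals. RefSeq start sites differ from the GENCODE gene starts given here, and both windows reach past the GENCODE start of their gene.
Asgr1 promoter: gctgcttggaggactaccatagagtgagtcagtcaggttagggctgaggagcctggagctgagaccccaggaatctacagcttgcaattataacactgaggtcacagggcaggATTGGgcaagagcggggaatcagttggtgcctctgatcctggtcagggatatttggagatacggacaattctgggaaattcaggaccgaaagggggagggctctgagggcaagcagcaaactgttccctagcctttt
Fgfr4 promoter: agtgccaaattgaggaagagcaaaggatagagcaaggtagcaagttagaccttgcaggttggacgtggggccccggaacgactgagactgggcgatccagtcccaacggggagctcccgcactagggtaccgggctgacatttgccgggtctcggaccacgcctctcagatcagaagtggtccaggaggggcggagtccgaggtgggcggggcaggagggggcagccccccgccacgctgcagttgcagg

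The Alb window held 1 HNF1 core, 32 bases before the RefSeq start site, and 2 CCAAT boxes. That site lies upstream of the GENCODE gene start at chr5:90460897, and the bases between them were not searched. The Asgr1 window shown held 1 CCAAT box and no HNF1 core. A further RefSeq window of Asgr1, at chr11:70054105-70054354, held neither, and the Fgfr4 window held neither. Of 32851 RefSeq mouse promoter windows of the same length, 6.43% held the HNF1 core and 33.8% a CCAAT box. Of the 3 RefSeq windows of Foxa2, 1 held an HNF1 core and another held 1 CCAAT box. On both strands 3 further motifs were searched, which no capitals mark: a TATA box (TATAAA, in 12.4% of all windows), a FOXA core (TGTTTAC, in 3.17%) and a TCF/LEF core (CTTTGAT, in 3.21%). None of the matches overlapped one another. The only match of these in the 7 windows of Alb, Foxa2, Fgfr4 and Asgr1 was 1 TATA box in a Foxa2 window. GC content was 39.2% in the Alb window, 53.2% in the Asgr1 window shown and 48% in the further Asgr1 window. It was 64% in the Fgfr4 window, against a median of 52.4% over all windows.

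Asgr1 levels were 426, 472, 379.8, 435 and 457 CPM in anti-CD40 mice 11 to 15 with ABX, against 469.6, 507, 532, 551 and 528 CPM in control mice 1 to 5 with ABX. In anti-CD40 mice 16 to 20 without ABX they were 397, 297, 352, 408 and 437 CPM, against 420.3, 418, 529.5, 492 and 453 CPM in control mice 6 to 10 without ABX. The anti-CD40 and control ranges overlapped in both settings. With ABX anti-CD40 mouse 12 lay above control mouse 1, and without ABX anti-CD40 mouse 20 lay above control mice 6 and 7. Means were 434 ± 35.2 CPM in anti-CD40 mice with ABX, 378 ± 54.5 CPM in anti-CD40 mice without ABX, 517 ± 30.9 CPM in control mice with ABX and 463 ± 47.9 CPM in control mice without ABX (SD, n = 5 each). With 2133 to 3313 counts per library, the row of Asgr1 held more fragments than those of Foxa2, Fgfr4 or Tbx3. Of the 1995 bp of that row 1689 bp lie outside the gene, so the number of fragments from Asgr1 itself is not known.

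Fgfr4 levels were 48.5, 55.2, 67.4, 60.8 and 63.6 CPM in anti-CD40 mice 11 to 15 with ABX, against 37.2, 47.7, 44.1, 36.4 and 36.9 CPM in control mice 1 to 5 with ABX. In anti-CD40 mice 16 to 20 without ABX they were 74.1, 50.8, 67.3, 78.4 and 73.6 CPM, against 38.4, 39.4, 48.2, 42.2 and 37.7 CPM in control mice 6 to 10 without ABX. Every anti-CD40 mouse was above every control mouse, with the lowest anti-CD40 mouse at 48.5 CPM and the highest control mouse at 48.2 CPM. Means were 59.1 ± 7.41 CPM in anti-CD40 mice with ABX, 68.8 ± 10.8 CPM in anti-CD40 mice without ABX, 40.5 ± 5.13 CPM in control mice with ABX and 41.2 ± 4.25 CPM in control mice without ABX (SD, n = 5 each).

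**Figure D3:**
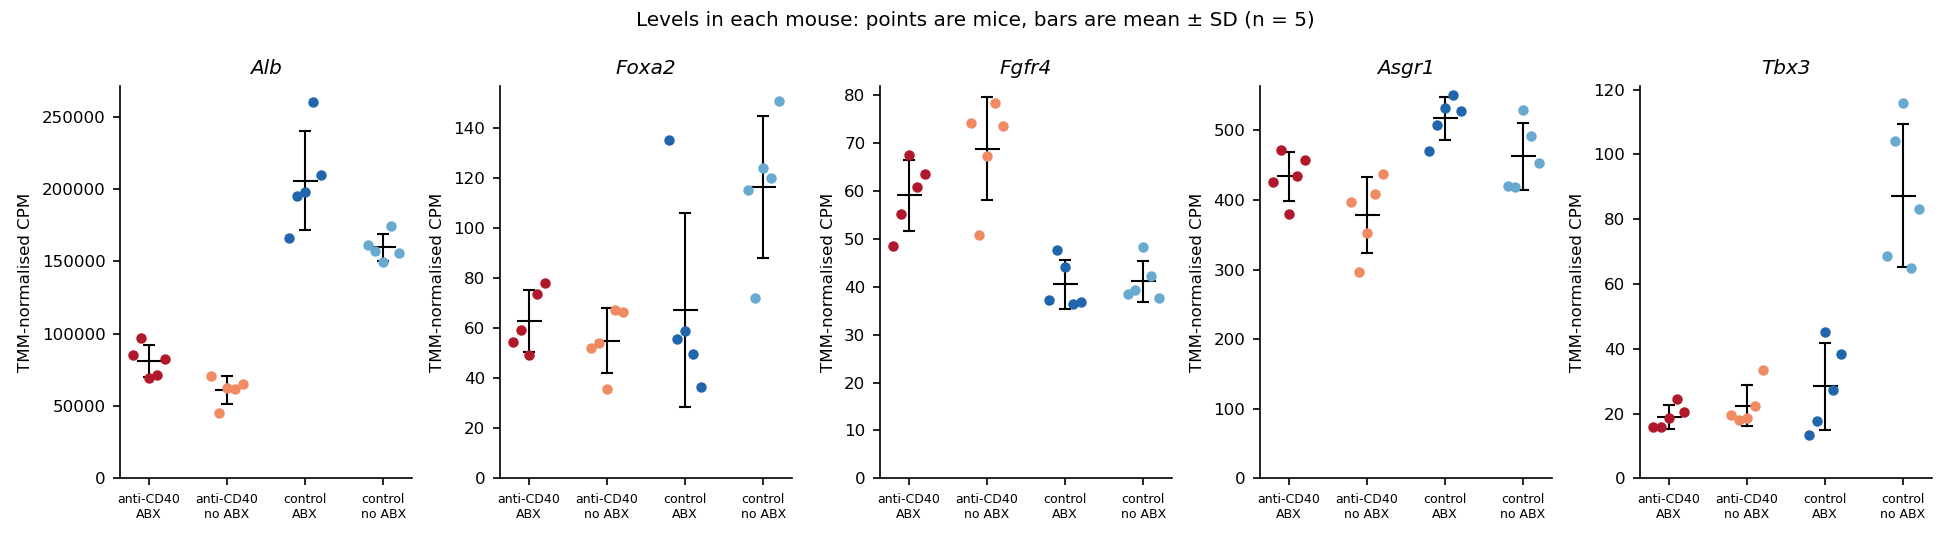
Level of each gene in each mouse, in TMM-normalised CPM on a linear axis from 0; points are mice and bars are the mean ± SD of 5 mice. Alb was at 44829 to 96883 CPM in the 10 anti-CD40 mice and at 149421 CPM or more in the 10 control mice, Fgfr4 shows the opposite separation, and Tbx3 was at 65.0 CPM or more in control mice without ABX alone.

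Per kilobase of counted exon, the order of the genes changed between groups. In anti-CD40 mice without ABX the levels per kb were 128512 ± 20359 CPM for Alb, 2250.3 ± 325 for Asgr1, 237 ± 37.2 for Fgfr4, 124 ± 29.1 for Foxa2 and 31.2 ± 8.86 for Tbx3 (SD, n = 5). In control mice without ABX they were 336763 ± 19737 CPM per kb for Alb, 2754 ± 285 for Asgr1, 261 ± 63.6 for Foxa2, 142 ± 14.6 for Fgfr4 and 122 ± 31 for Tbx3. Fgfr4 thus stood above Foxa2 in anti-CD40 mice without ABX and below it in control mice without ABX, where Fgfr4 and Tbx3 did not differ beyond their spread. The counts come from whole intervals, of which 44.2% was exon for Fgfr4 and 86.4% for Foxa2. The share was 8.35% for Alb, 8.42% for Asgr1 and 81.2% for Tbx3. The order of Fgfr4 and Foxa2, and its change between groups, therefore depends on the length chosen as divisor. With ABX the order was the same in both settings at the top and the bottom: Tbx3 was lowest, at 26.4 ± 5.09 CPM per kb in anti-CD40 mice and 39.5 ± 18.8 CPM per kb in control mice, and Foxa2 and Fgfr4 in control mice lay within their spread, at 151 ± 87.3 and 139 ± 17.6 CPM per kb.

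The comparison of anti-CD40 with control mice without ABX asks what the antibody does to liver transcripts when no antibiotics are given. Alb was 2.62-fold lower in anti-CD40 mice, Tbx3 3.89-fold lower and Foxa2 2.11-fold lower, and Fgfr4 was 1.67-fold higher. The log2 fold change was -1.39 ± 0.13 for Alb (SE, adjusted p = 2.08e-09), -1.96 ± 0.28 for Tbx3 (8.3e-06), -1.08 ± 0.29 for Foxa2 (0.00423) and 0.74 ± 0.11 for Fgfr4 (5.46e-06), by edgeR's quasi-likelihood test adjusted by Benjamini-Hochberg over 2200 genes. In these 4 genes the 5 anti-CD40 mice did not overlap the 5 control mice. Asgr1 was 1.22-fold lower, at -0.29 ± 0.10 (adjusted p = 0.0106), a difference that shrank to -0.06 (adjusted p = 0.485) when libraries were scaled by their totals in place of TMM. All 5 genes were called at an adjusted p under 0.05, as were 60.6% of all 2200 genes, so a call here does not set the 5 genes apart. Of all genes 31.8% were higher and 28.8% lower in anti-CD40 mice, the groups did not overlap for 42.5%, and the median change was 0.03; 52.5% of called genes were higher with TMM and 69.7% with library totals.

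Within plate column 4, where anti-CD40 mouse 16 stood beside control mice 9 and 10, the changes were -1.23 ± 0.26 for Alb (adjusted p = 0.00106), -1.91 ± 0.60 for Tbx3 (0.0214) and 0.89 ± 0.22 for Fgfr4 (0.00356), from the edgeR fit with plate column as a term. This sets 1 mouse against 2, and mouse 16 is assumed to vary as the mice of the other groups do, so the errors and p-values hold no replicate spread of its own. From that fit each change without ABX, each change of ABX in anti-CD40 mice and each difference between the settings given below rests on mouse 16 alone in the same way. In that fit Foxa2 was at -1.38 ± 0.62 (adjusted p = 0.104) and Asgr1 at -0.25 ± 0.19 (0.338), so neither was called.

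The comparison of anti-CD40 with control mice with ABX asks the same where antibiotics were given. Alb was 2.54-fold lower and Fgfr4 1.46-fold higher in anti-CD40 mice, close to the sizes without ABX, and for both genes the groups did not overlap. The log2 fold change was -1.34 ± 0.13 for Alb (adjusted p = 3.71e-09) and 0.55 ± 0.12 for Fgfr4 (0.000292, edgeR). Foxa2 was at -0.10 ± 0.29 (95% interval -0.72 to 0.52, adjusted p = 0.801) and Tbx3 at -0.57 ± 0.29 (-1.18 to 0.04, 0.111), and neither was called. Asgr1 was 1.19-fold lower at -0.25 ± 0.09 (adjusted p = 0.0289), with overlapping groups, and its sign turned to 0.10 (adjusted p = 0.250) with library totals. Calls covered 3 of the 5 genes and 51.5% of all genes, with 26.6% higher, 24.9% lower, 37.8% without overlap and a median change of 0.02; of the called genes 51.6% were higher with TMM and 76.8% with library totals.

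Leaving out control mouse 1, whose Foxa2 level was far above those of its group, put Tbx3 at -0.76 (adjusted p = 0.0223) and Foxa2 at 0.32 (0.223, edgeR). Of the 10 fits with a mouse left out this was the only 1 that called Tbx3, whose values ran from -0.76 to -0.34. The call of Asgr1 was lost when any one of control mice 3, 4 and 5 or anti-CD40 mice 11 and 13 was left out (-0.24 to -0.20), and with plate column as a term (-0.30, adjusted p = 0.194); no plate column held both of these groups.

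**Figure D4:**
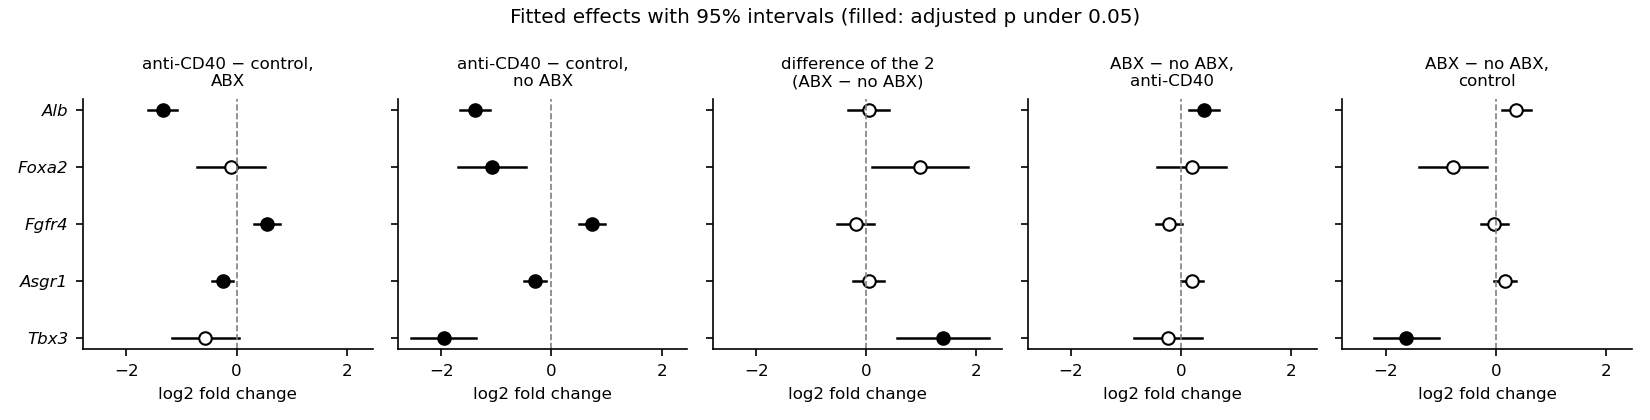
Log2 fold changes with 95% intervals for the 5 genes in the 5 comparisons; filled points have an adjusted p under 0.05 by edgeR. Alb and Fgfr4 have intervals away from 0 with and without ABX, whereas the interval of Foxa2 spans 0 with ABX and that of Tbx3 reaches 0.04.

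The difference between the 2 effects, with ABX minus without ABX, tests whether antibiotics change the response to anti-CD40. It was 1.39 ± 0.40 for Tbx3 (95% interval 0.55 to 2.23, adjusted p = 0.0417, edgeR), the only one of the 5 genes called, where 7.55% of all genes were called, 4.36% in the positive and 3.18% in the negative direction. For Foxa2 it was 0.98 ± 0.41 (95% interval 0.11 to 1.85, unadjusted p = 0.0301, adjusted p = 0.160). For Alb it was 0.05 ± 0.18 (-0.33 to 0.42), for Asgr1 0.04 ± 0.13 (-0.24 to 0.32) and for Fgfr4 -0.19 ± 0.16 (-0.53 to 0.14), with adjusted p of 0.902, 0.894 and 0.500; the sign of Alb turned to -0.20 and that of Asgr1 to -0.05 with plate column as a term. Of called genes 57.8% were positive with TMM and 80.3% with library totals.

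The Tbx3 difference was close to the threshold: it stayed between 1.21 and 1.63 when each of the 20 mice was left out in turn, but was no longer called in 12 of those fits (mice 2, 4, 7, 8, 10 and 13 to 19, adjusted p of 0.0546 to 0.0839), with no filter on low counts (1.39, adjusted p = 0.0915) or with plate column as a term (1.72, adjusted p = 0.263). With each of the 20 mice left out in turn the Foxa2 difference ran from 0.83 to 1.41, and 1 of those fits called it. That fit left out control mouse 1 (1.41, adjusted p = 0.00782, edgeR), the mouse with the outlying Foxa2 level. A mouse singled out by its Foxa2 level gives no separate support for a Foxa2 difference.

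Antibiotics alone, in control mice, left Tbx3 3.09-fold lower. The log2 fold change was -1.63 ± 0.28 (95% interval -2.21 to -1.04, adjusted p = 0.00229, edgeR), rank 15 of 2200 genes by p, and the 5 mice with ABX did not overlap the 5 without. Foxa2 was at -0.78 ± 0.29 (adjusted p = 0.129), Alb at 0.37 ± 0.13 (0.0901), Asgr1 at 0.16 ± 0.09 (0.373) and Fgfr4 at -0.03 ± 0.12 (0.932), and none of these was called. Calls covered 1 of the 5 genes and 6.68% of all genes, 3.45% higher and 3.23% lower, and the groups did not overlap for 6.23%; of called genes 51.7% were higher with TMM and 20.1% with library totals. Within plate column 3, the 5 control mice with ABX against control mice 6, 7 and 8, Tbx3 was at -1.77 ± 0.31 (adjusted p = 0.0111). Foxa2 and Alb were each called in 1 of the 10 fits with a mouse left out, with ranges of -1.21 to -0.63 and 0.27 to 0.43. Both calls came without control mouse 1, singled out by its Foxa2 level: -1.21 for Foxa2 (adjusted p = 0.00328) and 0.43 for Alb (0.0489, edgeR).

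In anti-CD40 mice, ABX left Alb 1.33-fold higher, at 0.41 ± 0.13 on the log2 scale (adjusted p = 0.0292, edgeR), with overlapping groups. Tbx3 was at -0.24 ± 0.29 (95% interval -0.85 to 0.38), Foxa2 at 0.19 ± 0.29, Fgfr4 at -0.22 ± 0.11 and Asgr1 at 0.20 ± 0.10, with adjusted p of 0.623, 0.693, 0.205 and 0.166. Calls covered 1 of the 5 genes and 15.9% of all genes, 8.68% higher and 7.23% lower. The Alb call was lost without any one of mice 11, 12, 17 and 18 (0.33 to 0.43) and with plate column as a term (0.20, adjusted p = 0.706), where the 5 mice with ABX are set against mouse 16 alone, whose spread is borrowed from the other groups; Fgfr4 was called without mouse 17 (-0.30, adjusted p = 0.0489).

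The 3 comparisons in which Tbx3 was called all rest on the same 5 control mice without ABX, in which the gene was high, and are not independent of one another.

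Other genes of the same kinds were read from lists that contain the 5 genes themselves. Their counts stand beside the shares of all genes given above: 26.6% higher and 24.9% lower with ABX, with a median change of 0.02, and 31.8% higher and 28.8% lower without ABX, with a median of 0.03. Of 34 hepatocyte transcription factors 5 were tested. Without ABX 4 of them fell in anti-CD40 mice and 1 rose, with a median change of -0.75; with ABX 1 rose and 4 were not called, with a median of -0.12. Rxra, the retinoid X receptor that pairs with bile acid and lipid sensors, was at -0.17 ± 0.14 with ABX (adjusted p = 0.336) and -0.64 ± 0.14 without (0.000396). Gata4, a zinc finger factor of liver development, was at -0.12 ± 0.18 with ABX (adjusted p = 0.599) and -0.75 ± 0.18 without (0.000958). For neither was the difference between the settings called (0.47 ± 0.20, adjusted p = 0.143, and 0.63 ± 0.25, 0.132), and with library totals the values with ABX turned to 0.18 for Rxra and 0.22 for Gata4. Xbp1, a factor of the unfolded protein response, rose in both settings, by 0.51 ± 0.13 with ABX (0.00217) and 0.33 ± 0.13 without (0.0322, edgeR). With plate column as a term 1 of the 5, Tbx3, was called without ABX and 0 with ABX.

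Of 64 plasma proteins made by hepatocytes 11 were tested, and in each setting 8 fell and 3 rose, with a median change of -0.94 with ABX and -0.90 without. Apoe, the apolipoprotein of remnant particles, was at -0.94 ± 0.11 on the log2 scale with ABX and -1.11 ± 0.11 without (adjusted p = 1.23e-07 and 7.86e-09). Serpina1d, an α1-antitrypsin gene with near-identical copies that may share its reads, was at -1.30 ± 0.11 with ABX and -1.05 ± 0.11 without (2.91e-10 and 9.19e-09). Cp, the copper carrier ceruloplasmin and an acute-phase protein, moved the other way, by 2.07 ± 0.14 with ABX and 2.31 ± 0.14 without (3.84e-12 and 5.17e-13, edgeR). Alb thus moved as the larger number of its list did. With plate column as a term 7 fell and 2 rose in each setting.

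Of 36 surface receptors and transporters 9 were tested, Asgr1 and Fgfr4 among them. With ABX 5 fell, 2 rose and 2 were not called, with a median of -0.25; without ABX 7 fell, 1 rose and 1 was not called, with a median of -0.47. With library totals 3 fell and 2 rose in each setting, and the median with ABX turned to 0.10. Abcc6, a hepatocyte efflux transporter, was at -1.49 ± 0.10 with ABX and -1.74 ± 0.10 without (adjusted p = 5.27e-12 and 3.55e-13). Cldn1, a tight junction protein, was at -1.18 ± 0.14 with ABX and -1.11 ± 0.15 without (3.91e-07 and 9.04e-07). Abcc2, the canalicular exporter of conjugates, was at -0.24 ± 0.13 with ABX (0.132) and -0.75 ± 0.13 without (3.86e-05, edgeR). Its difference between the settings was not called (0.51 ± 0.19, adjusted p = 0.0981, edgeR). Fgfr4 was the gene of this list that rose without ABX. With plate column as a term 3 fell and 1 rose in each setting.

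Of 24 genes of FGFR4 signalling and bile acid feedback 4 were tested, and in each setting 2 rose and 2 fell. Beside Fgfr4, the adaptor Grb2 rose by 0.83 ± 0.07 with ABX and 0.85 ± 0.07 without (adjusted p = 1.01e-09 and 4.93e-10). The Ras exchange factor Sos1 was at -0.58 ± 0.15 with ABX and -1.07 ± 0.15 without (0.00160 and 1.05e-06), and the kinase Prkcz at -0.46 ± 0.15 and -0.61 ± 0.15 (0.0124 and 0.00103, edgeR); with library totals neither was called with ABX. Among the other 4 FGF receptors 1 was tested. Fgfr2, whose ligands include FGF7 and FGF10, averaged 73.4 CPM in anti-CD40 mice with ABX, 66.0 in anti-CD40 mice without ABX, 32.4 in control mice with ABX and 17.2 in control mice without ABX. It rose by 1.18 ± 0.13 with ABX and 1.93 ± 0.14 without (4.81e-08 and 1.54e-11), the difference of -0.75 ± 0.19 was called (0.0187), and in control mice it was higher with ABX by 0.91 ± 0.14 (0.000617, edgeR).

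Tbx3 was also read beside WNT targets and genes of pericentral hepatocytes, the zone near the central vein, of which 8 of 34 were tested. With ABX 4 fell, 1 rose and 3 were not called, with a median of -0.70; without ABX 6 fell and 2 were not called, with a median of -1.87. The difference between the settings was called for 2 of the 8, Tbx3 and Aldh1a1, both positive; with plate column as a term it was called for 0, while 4 fell with ABX and 5 without. Aldh1a1, a retinal dehydrogenase, was at -0.84 ± 0.12 with ABX and -1.79 ± 0.12 without (adjusted p = 2.45e-06 and 8.11e-12), a difference of 0.95 ± 0.17 (0.00195). In anti-CD40 mice it was higher with ABX by 0.84 ± 0.12 (7.54e-05, edgeR), a call lost with plate column as a term (0.81, adjusted p = 0.0927). In control mice ABX left it at -0.11 ± 0.12 (0.701), and of the 8 genes 2 fell and 2 rose there, where 3.23% of all genes were lower and 3.45% higher. Beside Tbx3 the gene that fell was Cyp3a11, a drug-metabolising cytochrome with close paralogs, at -2.17 ± 0.24 (adjusted p = 6.1e-05). Tcf7l2, a transcription factor of WNT signalling, was at 0.58 ± 0.13 (0.0103) and Gulo at 0.42 ± 0.12 (0.0359, edgeR), and neither was called with library totals or with plate column as a term. Cyp2c29, a drug-metabolising cytochrome with close paralogs, was at -3.62 ± 0.21 with ABX and -4.31 ± 0.22 without (1.04e-11 and 9.48e-13). Gulo, the last enzyme of vitamin C synthesis, was at -2.41 ± 0.13 with ABX and -1.97 ± 0.13 without (9.19e-14 and 2.06e-12).

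Of 26 periportal genes 2 were tested and both fell in each setting. Cps1, the entry enzyme of the urea cycle, was at -1.85 ± 0.11 with ABX and -2.30 ± 0.11 without (adjusted p = 3.24e-13 and 9.13e-15), and Hal, which breaks down histidine, at -1.54 ± 0.11 and -1.67 ± 0.11 (3.4e-11 and 7.25e-12, edgeR). Of 17 T-box genes 4 had counts and Tbx3 alone was tested.

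**Figure D5:**
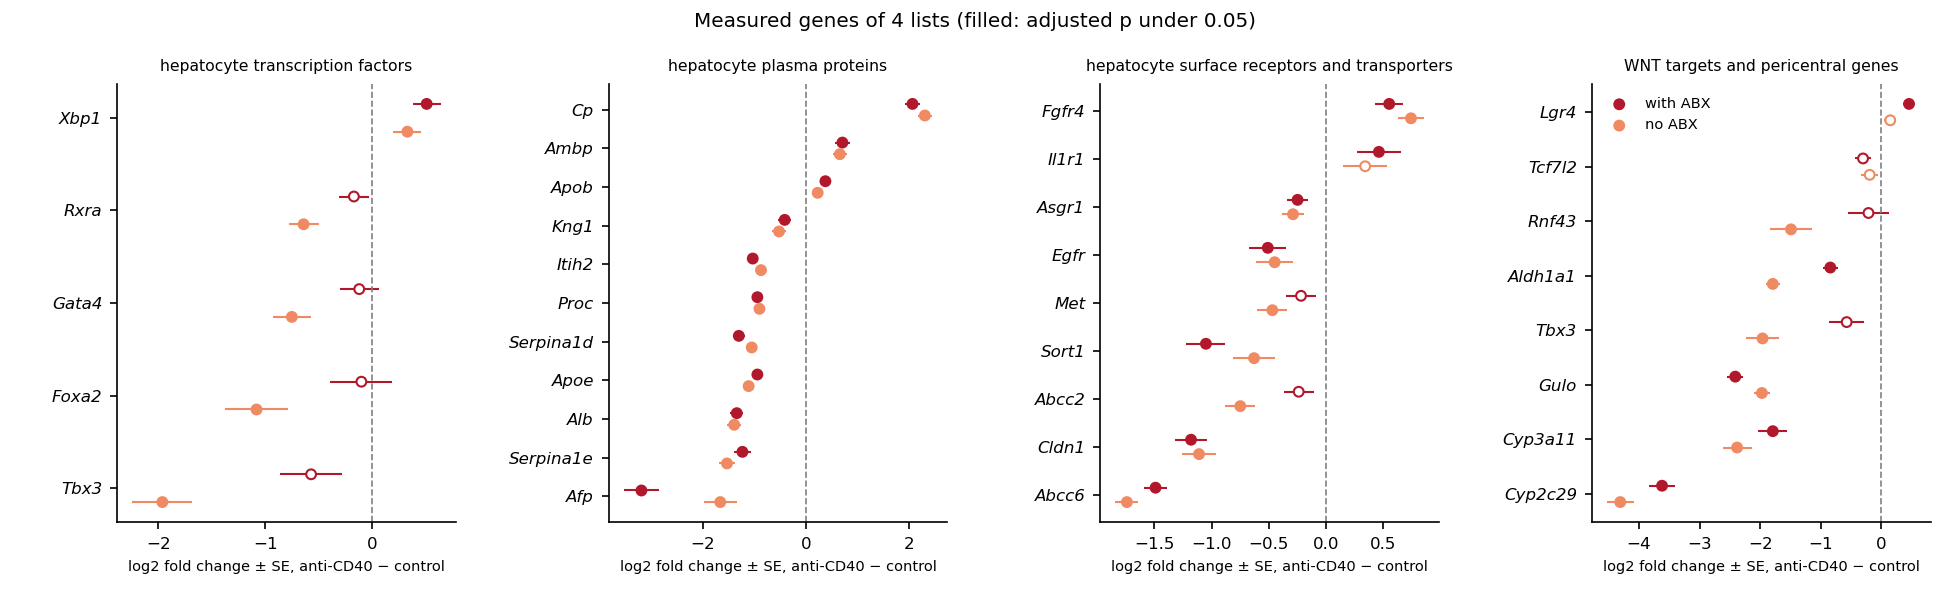
Log2 fold change ± SE of anti-CD40 against control mice for the tested genes of 4 lists, with ABX (dark red) and without ABX (orange); filled points have an adjusted p under 0.05. Foxa2, Gata4, Rxra and Tbx3 are filled without ABX and open with ABX, while all 11 plasma proteins are filled in both settings. Filled against open is no test of the difference between the settings. By edgeR that difference was called for Tbx3 (adjusted p = 0.0417) and not for Foxa2 (0.160), Gata4 (0.132) or Rxra (0.143).

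Several markers of other liver cells moved with anti-CD40, and their part in the results above was not tested. In these bulk samples fewer hepatocytes and less of a transcript per hepatocyte cannot be told apart. The summed level of the hepatocyte markers without Alb was 34361 to 41929.7 CPM in anti-CD40 mice with ABX, 27309 to 37234 in anti-CD40 mice without ABX, 53439 to 77552 in control mice with ABX and 56674 to 95344 in control mice without ABX. Of 13 Kupffer cell and macrophage markers 4 were tested, and their sum was 307 to 913 CPM in anti-CD40 mice with ABX, 283 to 1103 in anti-CD40 mice without ABX, 112 to 177 in control mice with ABX and 116 to 333 in control mice without ABX. Lyz2, the macrophage and neutrophil lysozyme, made up most of that sum on average and rose by 2.28 ± 0.40 with ABX and 2.32 ± 0.40 without (adjusted p = 0.000129 and 8.79e-05), while Adgre1, the gene of a surface receptor of mature macrophages, was at -2.54 ± 0.39 with ABX and -2.50 ± 0.38 without (2.27e-05 and 1.63e-05, edgeR). Mean Adgre1 levels were 3.55 and 3.84 CPM in anti-CD40 mice with and without ABX, against 20.7 and 21.9 CPM in control mice with and without ABX. Of the 4, 3 rose and 1 fell with ABX, and 2 rose and 1 fell without. Of 10 sinusoidal endothelial markers 4 were tested, with sums of 14.5 to 70.8, 25.5 to 103, 101 to 129.9 and 112 to 165 CPM in the same order of groups; 3 fell with ABX and 2 without, and the scavenger receptor gene Stab2 was at -3.83 ± 0.33 and -3.36 ± 0.31 (7.67e-09 and 2.5e-08, edgeR). Of 10 cholangiocyte markers 2 were tested, with sums of 9.37 to 10.2, 14.3 to 27.7, 2.23 to 5.90 and 4.55 to 7.33 CPM, but their changes had opposite signs. Sox9, a factor of bile duct cells, rose by 2.43 ± 0.29 with ABX and 3.05 ± 0.25 without (1.36e-07 and 2.4e-10). Pkhd1, a protein of bile duct cilia, was at -0.68 ± 0.34 with ABX (0.0984) and -1.18 ± 0.34 without (0.00456, edgeR). The Pkhd1 difference between the settings was not called (0.50 ± 0.48, adjusted p = 0.573, edgeR). With plate column as a term its call without ABX was lost, at -1.41, a value that rests on anti-CD40 mouse 16 alone. Of 11 stellate cell and fibroblast markers 2 were tested, with sums of 6.79 to 51.3, 17.6 to 129, 75.8 to 185 and 101 to 214 CPM. Both fell with ABX and neither was called without, but for neither was the difference between the settings called. With plate column as a term neither was called with ABX. Of 10 T cell markers 2 were tested, with sums of 3.24 to 6.91, 2.84 to 6.91, 0 to 0.802 and 0.419 to 1.19 CPM, and of 5 B cell markers 2, with sums of 30.1 to 38.1, 19.4 to 33.2, 16.8 to 22.9 and 16.2 to 31.3 CPM. Both T cell markers rose in each setting, and with plate column as a term 1 was called with ABX. Of the B cell markers 1 rose with ABX and neither was called without, but for neither was the difference between the settings called. None of 8 neutrophil or 5 erythroid markers was measured.

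The hepatocyte markers did not move as one. Of the 6 tested, 5 fell and Apob, the structural protein of lipoproteins, rose, by 0.38 with ABX and 0.23 without (adjusted p = 0.000422 and 0.0181, edgeR). With plate column as a term Apob was called in neither setting, at 0.38 (adjusted p = 0.0591) with ABX and 0.21 (0.359) without, and 4 of the 6 fell. With library totals 4 fell and Apob rose in each setting, and Asgr1 was not called.

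For each of the 5 genes the tested protein-coding genes with the most similar pattern were sought among 2014, by the root mean square difference of log2 CPM over the 20 libraries, each gene centred on its own mean. Nearest to Alb were Agxt, a peroxisomal enzyme of glyoxylate breakdown, and Serpina1d, at 0.18 and 0.19, where the median gene was at 0.82. Nearest to Fgfr4 were Gnl1 and Ewsr1, both at 0.15, with a median of 0.54, and nearest to Asgr1 were Smim7 and H2-Q10, a class I gene of the liver with close paralogs, both at 0.11, with a median of 0.45. Foxa2 had no gene as near: Tep1 and Ddx19b were both at 0.42, against a median of 0.70 and a spread of Foxa2 itself of 0.59. The spread was 0.74 for Alb, 0.37 for Fgfr4 and 0.21 for Asgr1. A gene that varies little lies nearer to others by this measure. Nearest to Tbx3 were Cyp2c39 at 0.59 and the phosphate transporter Slc34a2 at 0.60, against a median of 1.02 and its own spread of 0.95. Slc34a2 averaged 4.08 CPM in anti-CD40 mice with ABX, 4.37 in anti-CD40 mice without ABX, 4.51 in control mice with ABX and 9.64 in control mice without ABX. Because it was picked for its likeness to Tbx3 in these same libraries, that shared pattern is no separate support. In control mice ABX left Slc34a2 at -1.09 ± 0.26 (adjusted p = 0.0131) and Cyp2c39 at -0.65 ± 0.35 (0.303, edgeR). The difference between the settings was not called for Slc34a2 (0.99 ± 0.38, adjusted p = 0.111) or Cyp2c39 (0.21 ± 0.59, 0.869, edgeR). Cyp2c39 was near the floor, at a mean of 2.26 CPM in control mice without ABX.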

How the data were processed

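Trimmomatic 0.38, HISAT2 2.1.0 and the build mm10 are named in the submitters' processing notes. Fragments were counted by the authors in pairs and without strand, by featureCounts 1.5.0-p2 per the file headers, over the human GRCh38 exons of Ensembl 93. The deposited counts are raw, and their human identifiers carry no meaning for mouse reads. Rows were therefore read as mm10 intervals and given to a GENCODE M21 gene with bedtools 2.31.1 when they covered at least 50 bp of its exons and no exon of another gene: 7463 of 58395 rows were attributed, to 5552 of 55536 genes, holding 46.4% of counts. Rows over several genes held 52.34% and were not used. Overlapping antisense transcripts cannot be separated.

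Library sizes were totals over all rows. After filterByExpr 2200 genes remained, of which 2025 were protein-coding. Genes were tested with edgeR 4.0.16 (R 4.3.3; TMM, robust quasi-likelihood F-test, two-sided, 1 fit of 20 libraries, 16 residual degrees of freedom), with Benjamini-Hochberg adjustment and calls where the adjusted p was below 0.05. The biological coefficient of variation came to 16.7%. The fit was also run on simulated data with changes in a minority of genes and in anti-CD40 mice without ABX alone. That run does not test the scaling of these data, where far more genes were called. Log2 CPM has a prior count of 2. Alternatives were other scalings, DESeq2 1.42.0, filters, attribution rules, plate column, smaller fits and each mouse left out. Named genes were the 5 genes, the 2 nearest in pattern to each, and up to 3 per list by smallest p without ABX; Apob, Cyp3a11, Tcf7l2, Lyz2, Adgre1, Stab2, Sox9 and Pkhd1 were named after their values had been seen. Members and lists were chosen with earlier results of these data known. Promoter windows are from RefSeq (GRCm38.p6); 4 of the 5 genes matched. Figures were drawn with matplotlib 3.10.9.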

Additional observations from a re-analysis of the deposited data

Results flagged for a closer look

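Among 20 sets of 5 mice (5 genes in 4 groups) examined for a mouse far from the rest of its group, 2 were found, where chance gives about 1 in 20. Control mouse 1 with ABX had 135 CPM of Foxa2, and its distance to the next mouse was 0.770 of the range of the group, above the limit of 0.71. Anti-CD40 mouse 20 without ABX had 33.4 CPM of Tbx3, at 0.719 of the range.

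The response to anti-CD40 differed between mice with and without ABX for 3 of the 32 named genes checked, by the edgeR test of the difference itself. That test called 7.55% of all 2200 genes. Genes taken from the lists were named by smallest p without ABX, and others by likeness in pattern in these same libraries. The effect without ABX is part of the difference tested, so 3 of 32 cannot be weighed against the share of all genes. The difference was 1.39 for Tbx3 (adjusted p = 0.0417), -0.75 for Fgfr2 (0.0187) and 0.95 for Aldh1a1 (0.00195). With library totals the Fgfr2 difference was -0.64 (adjusted p = 0.0579), and in the fit that includes plate column the 3 were at 1.72 (0.263), -0.91 (0.149) and 0.77 (0.170).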

How the results depend on the processing

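Of the values of single genes under the alternatives tried, 491 kept their direction and side of the threshold, 28 lost and 7 gained a call and 14 changed sign. Of the 5 genes, library totals left 4 called without ABX, against 5, and 2 with ABX, against 3, Asgr1 being the gene lost in both. With plate column as a term 3 were called without ABX, against 5 without that term, 2 with ABX, against 3, 0 for the difference, against 1, and 0 for ABX in anti-CD40 mice, against 1; over all genes that term gave 735, 690, 0, 77 and 5 calls, against 1333, 1133, 166, 147 and 350 without it, in the order without ABX, with ABX, difference, ABX in control mice and ABX in anti-CD40 mice. With no filter on low counts 0 were called for the difference, and with no filter or DESeq2 2 for ABX in control mice, Alb being the added gene (0.38 in both, adjusted p = 0.0485 and 0.0317). Leaving out each mouse in turn gave 5 to 5 calls without ABX, 2 to 4 with ABX, 0 to 2 for the difference, 1 to 3 for ABX in control mice and 0 to 1 for ABX in anti-CD40 mice. Signs turned for Foxa2 (0.23) and Asgr1 (0.10) with ABX under library totals, and for the difference of Alb (-0.20) and Asgr1 (-0.05) with plate column as a term. With mice left out, values that crossed 0 ranged from -0.25 to 0.32 for Foxa2 with ABX, -0.04 to 0.15 for the Alb difference, -0.03 to 0.11 for the Asgr1 difference and -0.09 to 0.03 for Fgfr4 under ABX in control mice; the cause was not tested. Library totals moved the median of all genes to 0.27 without ABX, 0.37 with ABX, 0.10 for the difference and -0.14 for ABX in control mice. Leaving Alb out of totals and scaling, an alternative chosen after seeing the data, changed no direction or call of the other 4 genes. A fit of only the groups compared could not be made for the difference, which needs all 4, and each gene rested on 1 row, so a split by interval gives the same value. No paired analysis was possible because no mouse number is shared between groups. Tbx3, with as few as 83 counts in a library, has the least depth of the 5.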
